A study of Homo sapiens with 8 samples.

Results

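Crosslink sites of dyskerin and GAR1 in the 3′ untranslated regions (3′UTRs) of mRNAs were described across the 8 libraries of an iCLIP experiment in the nuclear fraction of U2OS cells, a human osteosarcoma line. A site was kept when it lay, on the transcribed strand, in a 3′UTR of a protein-coding transcript of the GENCODE 44 basic set, was in no annotated coding sequence (CDS) or 5′UTR, and was more than 100 nt from any snoRNA or scaRNA. Of 1623913 different positions called in the series, 28554 met this rule. They come from 41073 positions in 3′UTRs, of which 12100 were left out as coding in another transcript, 159 as 5′UTR and 260 as near a guide RNA. The measured value of a site is its number of cDNAs, that is, of reverse-transcription products that ended next to it.

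The libraries form 4 groups of 2: immunoprecipitates made with an antibody against dyskerin, with an antibody against GAR1, with mouse IgG labelled as the control of the dyskerin set, and with mouse IgG labelled as that of the GAR1 set. The U2OS cells of all groups had no treatment in the labels and were irradiated with ultraviolet light and fractionated before the lysate was digested with RNase I. The GAR1 antibody was raised in rabbit, so mouse IgG is no species-matched control for it. The replicates are numbered in the labels, and the study describes them as independent experiments without saying which libraries were prepared together. The libraries differed widely in depth: 1693951 and 1875459 peak cDNAs with dyskerin, 585454 and 1976518 with GAR1, 146514 and 8183 with IgG of the dyskerin set, and 295255 and 10701 with IgG of the GAR1 set. Of 12 mesenchymal marker genes, 10 had exonic cDNAs with dyskerin (COL1A1 had 964 and 1727), none of 7 blood cell markers had any in any library, and of 7 epithelial markers CDH1 alone had some, 5 in the second GAR1 library.

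Dyskerin is the pseudouridine synthase of H/ACA ribonucleoproteins, in which a guide RNA pairs with a target and the enzyme isomerizes a uridine. GAR1 is another core protein of the mature particle, bound to dyskerin. The best known targets are ribosomal and spliceosomal RNAs. The 3′UTR is the part of an mRNA after the stop codon. It carries the polyadenylation signal, the sites read by microRNAs and elements that set stability, localization and, in selenoprotein mRNAs, decoding. Ultraviolet crosslinking joins a protein to a nucleotide it touches, most efficiently at uridines, and iCLIP assigns the site to the nucleotide just before the position where the cDNA begins.

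The sites with the most cDNAs give an idea of the sequences. Each run below is 29 nt of GRCh38 around one site, written as RNA, 5′ to 3′, with the crosslinked nucleotide in capitals. They are the 3′UTR sites with the most cDNAs summed over both dyskerin libraries among those called in both, and the leading GAR1 site in APOC3. The second-ranked VMP1 site, 1 nt downstream of the first, overlaps it and is not repeated. The HNRNPA1 and HSP90B1 sites lie in an intron of the gene's canonical transcript, where pre-mRNA cannot be told apart from an alternative 3′UTR.
VMP1, chr17:59841257-59841285, plus strand: guaccaccuugucgGguagcuuaucagac
HNRNPA2B1, chr7:26191641-26191669, minus strand: aggagaaacaccuuUuuagaucuuuuaga
HNRNPA1, chr12:54284523-54284551, plus strand: caacuuuauuccauAuuguucaacaggaa
HSP90B1, chr12:103947294-103947322, plus strand: auaaauguuguguuUagguggaagaagag
FBXO22, chr15:75938771-75938799, plus strand: aagauauggugcauUuuugaaccacaaca
DBNL, chr7:44068771-44068799, plus strand: aaaagauauaaacuUacaaaccaagaagc
NFIC, chr19:3462835-3462863, plus strand: ccccggcccacguuUucgguggaaaauua
FRMD6, chr14:51728189-51728217, plus strand: ugcacuuuaaguauUacacagaaguaaaa
LENG8, chr19:54461455-54461483, plus strand: agacugugcccgucCucggccccccaccc
APOC3, chr11:116833031-116833059, plus strand: caugcuggccucccAauaaagcuggacaa

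Sites in 3′UTRs were numerous only with dyskerin. The dyskerin libraries held 15377 and 14949 of them with 21033 and 20555 cDNAs, against 647 and 40 sites with 830 and 77 cDNAs in the IgG libraries of that set. The GAR1 libraries held 205 and 1045 sites with 407 and 1578 cDNAs, against 230 and 36 sites with 365 and 77 cDNAs in their IgG libraries. These numbers follow the depth of the libraries in part, so shares were compared. The 3′UTR sites took 1.24% (95% Wilson interval 1.23 to 1.26%) and 1.10% (1.08 to 1.11%) of the peak cDNAs with dyskerin, against 0.566% (0.529 to 0.606%) and 0.941% (0.754 to 1.17%) with IgG. Both dyskerin libraries were above both IgG libraries. With GAR1 the shares were 0.0695% (0.0631 to 0.0766%) and 0.0798% (0.0760 to 0.0839%), against 0.124% (0.112 to 0.137%) and 0.720% (0.576 to 0.898%) with IgG. Both GAR1 libraries were below both IgG libraries. The intervals cover counting error only. Over all 4 antibody libraries against all 4 IgG libraries the share averaged 0.622% and 0.588%, and the exact two-sided permutation test over 70 arrangements gave p = 0.943 (0.943 after Benjamini-Hochberg adjustment over 5 measures). Here and below this test exchanges libraries between the sets, so it does not address either antibody alone. For this share the sets differed from their IgG in opposite directions. Within one set, 2 libraries against 2 allow no p below 0.333.

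**Figure D1:**
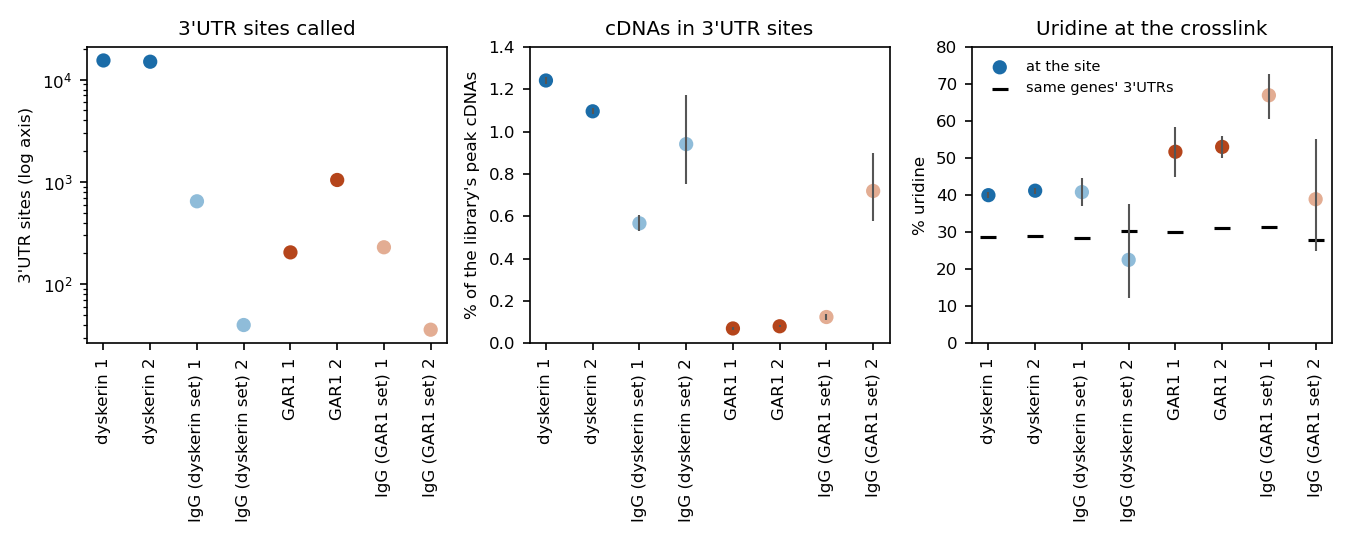
3′UTR sites in each library (left, log axis), the percent of the library's peak cDNAs in them (middle) and the percent of sites at a uridine (right), with 95% Wilson intervals and, as black dashes, the uridine content of the same genes' 3′UTRs. The dyskerin libraries hold 15377 and 14949 sites and the highest shares of cDNAs; the GAR1 libraries hold 205 and 1045 sites and the lowest shares.

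Within mRNA exons a small share of the dyskerin sites lay in 3′UTRs, where positions coding in any transcript counted as CDS. Of all sites in CDS, 5′UTRs and 3′UTRs, 4.44% and 3.35% were in 3′UTRs with dyskerin, against 2.88% and 13.2% with IgG. With GAR1 they were 15.9% and 12.7%, against 30.0% and 14.4% with IgG. Antibody and IgG libraries averaged 9.09% and 15.1% (exact permutation p = 0.486, adjusted p = 0.943). Per kb of annotated sequence the dyskerin libraries had 0.397 and 0.386 sites in 3′UTRs, against 9.07 and 11.8 in CDS. Of 3075 genes with at least 20 CDS and 3′UTR cDNAs in each dyskerin library, 1830 had no 3′UTR site in either, and in 47 the 3′UTR held more than 50% of these cDNAs in both.

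Most sites were thin. In the dyskerin libraries 75.5% and 75.5% of the 3′UTR sites had 1 cDNA, 171 and 195 sites had 5 or more, and the highest had 29 and 17. A 3′UTR site averaged 1.37 and 1.38 cDNAs with dyskerin, 1.99 and 1.51 with GAR1, 1.28 and 1.93 in the IgG libraries of the dyskerin set and 1.59 and 2.14 in those of the GAR1 set. CDS sites averaged 1.502 and 1.595 with dyskerin, 1.83 and 1.498 with GAR1, 1.37 and 1.44 with IgG of the dyskerin set and 2.20 and 1.75 with IgG of the GAR1 set. The difference, 3′UTR minus CDS, was above 0 in 4 of 8 libraries (exact sign-flip test over 256 arrangements, p = 1, adjusted p = 1). Of the 28554 positions, 24961 were called in 1 library only. The 2 dyskerin libraries shared 3229 positions, which is 21% and 21.6% of their 3′UTR sites, and 3010 of these were in no IgG library. The IgG libraries held only 647 and 40 sites (dyskerin set) and 230 and 36 (GAR1 set). Few of the shared positions could therefore be in them, and the count shows no specificity. The GAR1 libraries shared 30 positions in 12 genes (14.6% and 2.87% of their sites). The IgG libraries of the dyskerin set shared 3 and those of the GAR1 set 9, all in APOC3 and VMP1. CDS sites recurred at 34.4% and 26.5% with dyskerin and at 23.1% and 3.38% with GAR1. Over 8 libraries the 3′UTR share of recurring sites minus that of CDS averaged -2.75 percentage points and was above 0 in 3 (exact sign-flip p = 0.484, adjusted p = 0.727). Without APOC3 and VMP1, an alternative chosen after seeing the data, it averaged -8.24 (exact sign-flip test, adjusted p = 0.0234). Leaving these genes out removes every 3′UTR position that IgG replicates shared. The negative sign in all IgG libraries was thus set by the choice, and no conclusion is drawn from this p-value. Of the 647 sites of the deeper IgG library of the dyskerin set, 393 (60.7%) were also called in a dyskerin library, against 18.5% and 23.3% of the GAR1 sites.

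Dyskerin sites were fewer after the stop codon than before it, and fewer again farther into the 3′UTR. Bins after the stop codon leave out positions that are coding or 5′UTR in another transcript. Bins before it have no such exclusion, so the counting rule itself adds to the step, and by how much was not tested. In 9307 canonical transcripts with at least 300 nt of CDS and 1100 nt of 3′UTR, the first and second dyskerin library had 3620 and 4589 sites in the 50 nt that begin 150 nt before the end of the stop codon. They had 1986 and 2144 in the last 50 nt before that end, 1010 and 1165 in the first 50 nt of the 3′UTR, and 194 and 181 from 451 to 500 nt. Near the transcript end the bins were lower again, with 84 and 98 sites from 200 to 151 nt before it and 22 and 24 in the last 50 nt. The deeper IgG library of the dyskerin set had the same order, with 235 sites in the bin that begins 150 nt before the end of the stop codon and 21 in the first 50 nt of the 3′UTR. The second GAR1 library had 84 and 11 sites in those bins, and no decline with distance is seen among its 3′UTR bins.

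**Figure D2:**
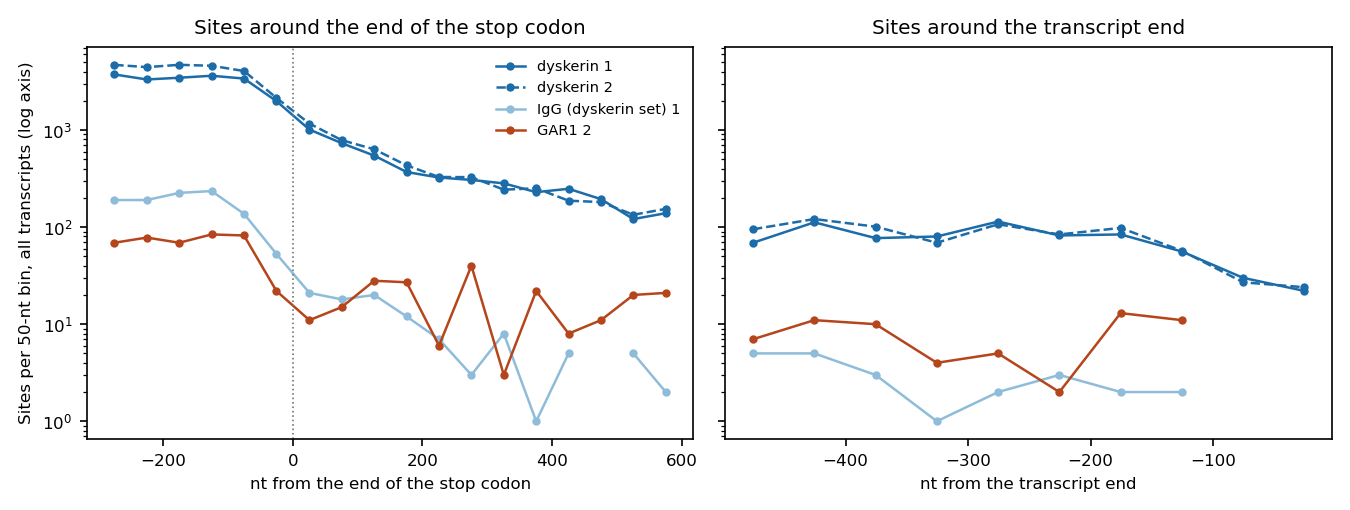
Sites per 50-nt bin (log axis) against distance from the end of the stop codon (left, CDS before the dotted line) and from the transcript end (right) in 9307 canonical transcripts, for both dyskerin libraries, the deeper IgG library of their set and the deeper GAR1 library; bins with no site have no point. The dyskerin lines go down by a step at the stop codon and reach 22 and 24 sites in the last bin. Only the 3′UTR bins leave out positions that are coding or 5′UTR in another transcript, which adds to the step.

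Scaled to the length of each 3′UTR, the first 10% held 28.9% and 31.8% of the dyskerin sites, and the last 10% 4.2% and 4.7%, where an even spread would give a share of 10% each. In the GAR1 libraries the first 10% held 19.0% and 12.04% and the last 0% and 2.3%. In the deeper IgG libraries the first 10% held 17.5% (dyskerin set) and 16.2% (GAR1 set). Within 100 nt of the stop codon lay 19.0% and 22.0% of the dyskerin sites, against 6.01% and 6.72% if sites were spread evenly along the same 3′UTRs. For GAR1 these shares were 2.4% and 7.6%, against 7.9% and 7.2% if even. Within 100 nt of the transcript end lay 1.9% and 2.6% of the dyskerin sites, against the same even shares.

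The median distance from the stop codon was 682 and 525 nt with dyskerin, against 1667 and 735.5 nt with IgG. It was 694 and 749.5 nt with GAR1, against 521.5 and 523 nt with IgG. Both dyskerin libraries lay nearer to the stop codon than their IgG libraries and both GAR1 libraries lay farther. The 4 antibody libraries averaged 663 nt and the 4 IgG libraries 862 nt (exact permutation p = 0.8, adjusted p = 0.943). The median distance to the transcript end was 1766.5 and 1753 nt with dyskerin, against 2515 and 960 nt with IgG, and 1767 and 1318 nt with GAR1, against 1309.5 and 602 nt with IgG. The means were 1651 nt with antibody and 1347 nt with IgG (exact permutation p = 0.486, adjusted p = 0.943).

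Of all 28554 positions, 84.6% lay in the 3′UTR of the gene's canonical transcript. Another 11.8% lay in an intron of it, so that they are 3′UTR only in an alternative transcript and pre-mRNA cannot be told apart from it there. Positions inside another gene on the same strand made up 10.8%, and positions over a gene on the other strand 19.99%. Reads that map to several places were kept, up to 50 per read. The 20 nt after the site occurred more than once in the genome for 15.9% and 15.95% with dyskerin, 25.9% and 18.8% with GAR1, 22.6% and 10.0% in the IgG libraries of the dyskerin set and 48.7% and 11.1% in those of the GAR1 set.

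Uridine was more frequent at and just after the crosslinked nucleotide than in the 3′UTRs as a whole, in the IgG libraries of greater depth as well. With dyskerin 40.0% and 41.2% of the sites were at a uridine, against a uridine content of 28.7% and 28.96% in the 3′UTRs of the same genes weighted by their sites. With IgG of that set the shares were 40.8% (647 sites) and 22.5% (40 sites). With GAR1 they were 51.7% and 53.0%, against 29.9% and 31.1% in the same genes' 3′UTRs and 67.0% (230 sites) and 38.9% (36 sites) with IgG. Antibody and IgG libraries averaged 46.5% and 42.3% (exact permutation p = 0.657, adjusted p = 0.943). CDS sites were less often at a uridine in 7 of 8 libraries, 29.7% and 29.7% with dyskerin and 23.9% and 27.1% with GAR1. The difference, 3′UTR minus CDS, averaged 17.3 percentage points (exact sign-flip p = 0.0156, adjusted p = 0.0469 over 3 measures). The call did not hold in canonical transcripts alone (17.2 points, adjusted p = 0.117) or with sites of at least 3 cDNAs (12.3 points, adjusted p = 0.0938). Coding sequence itself holds less uridine: 21.3% and 21.6% in the genes of the dyskerin sites. Above their own background the dyskerin libraries stood 11.3 and 12.2 points higher in 3′UTRs and 8.45 and 8.15 points higher in CDS.

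The highest uridine share was 1 nt downstream of the site: 45.5% and 47.4% with dyskerin, 60.5% and 59.4% with GAR1, and 43.9% in the deeper IgG library of the dyskerin set. Guanosine was lowest there, at 7.6% and 7.2% with dyskerin. The dyskerin profiles returned to 28.1% and 29.1% uridine 3 nt downstream. The GAR1 profiles were still at 50.2% and 44.2% there, and the deeper GAR1 IgG library was between 53.0% and 68.3% over all of the 14 nt downstream.

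**Figure D3:**
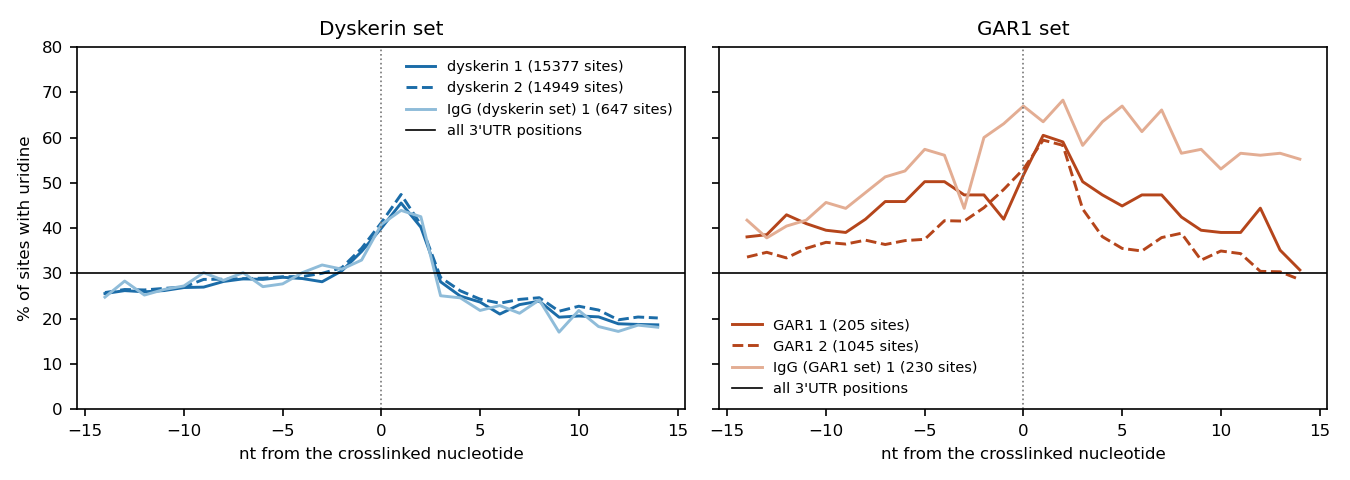
Percent of 3′UTR sites with a uridine (vertical axis) at each position from 14 nt before to 14 nt after the crosslinked nucleotide at 0, for libraries with at least 100 sites in the dyskerin set (left) and the GAR1 set (right); the black line is the uridine content of all 3′UTR positions, 30.1%. The dyskerin lines peak at 45.5% and 47.4% just after the site and the GAR1 lines at 60.5% and 59.4%.

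Runs of uridines were more frequent around GAR1 sites than around dyskerin sites, and most frequent in one IgG library. A run UUUUU occurred in the 29-nt window of 11.4% and 13.04% of the dyskerin sites, against 8.60% and 8.93% of equal windows of the same genes' 3′UTRs and 8.93% of all 3′UTR windows. In the GAR1 libraries 44.4% and 36.0% of the sites had one, against 9.76% and 10.98% of windows in the same genes. Their IgG libraries had one in 65.7% (230 sites) and 8.33% (36 sites), and those of the dyskerin set in 11.3% and 5.0%. Among sites whose sequence occurs once in the genome the GAR1 shares were 32.9% and 31.2%, against 46.6% and 9.4% with IgG, and among those in several copies 77.4% and 56.6%, against 85.7% of 112 sites in the deeper IgG library. The polyadenylation signal AAUAAA was in 2.25% and 2.37% of the dyskerin windows, against 2.97% and 3.10% of windows in the same genes. In the GAR1 libraries it was in 5.37% and 1.91%, and in the deeper IgG library of the dyskerin set in 7.88%. The pentamer AUUUA of AU-rich elements was in 4.54% and 4.90% of the dyskerin windows (4.92% and 5.11% in the same genes) and in 12.7% and 8.04% of the GAR1 windows (4.91% and 5.64%). The PUMILIO-like motif UGUANA was in 2.54% and 2.73% of the dyskerin windows (3.86% in the same genes of each). Motifs read by standalone pseudouridine synthases were also counted, on the sense strand. GUUCNANNC, the consensus read by TRUB1, was in 0.40% and 0.25% of the dyskerin windows (0.33% and 0.34%). UNUAA or UNUAG, read by PUS7, was in 22.7% and 23.05% (24.2% and 24.7%). These counts describe letters in a window and show no binding by another factor.

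A small set of genes carried most of the signal. The dyskerin libraries had 3′UTR sites in 1551 and 1478 genes, the GAR1 libraries in 88 and 222, the IgG libraries of the dyskerin set in 146 and 25 and those of the GAR1 set in 90 and 25. The 10 genes with the most cDNAs held 18.5% and 18.6% of the 3′UTR cDNAs with dyskerin, 50.9% and 39.0% with GAR1, 42.8% and 61.0% with IgG of the dyskerin set and 44.7% and 58.4% with IgG of the GAR1 set. In 148 genes the 3′UTR had at least 20 cDNAs in both dyskerin libraries. These genes held 55.6% and 55.7% of the dyskerin 3′UTR cDNAs in 1.94% of the 3′UTR sequence. For 135 of them the 2 libraries were within a factor of 2 in CPM, the cDNAs after division by the library's own total, where the choice of genes with 20 cDNAs in both favours such likeness. Of the 148, 41 had any cDNA with GAR1, 11 in both GAR1 libraries, and 74 had any with IgG of the dyskerin set. Their 3′UTRs had a median length of 3.88 kb, against 1.27 kb over all 18980 genes, as a choice by count favours long 3′UTRs, and a median uridine content of 29.3%, against 29.5%. In 26 of the 148 the 3′UTR was denser than the CDS in both dyskerin libraries. Densities below are CPM per kb of the gene's 3′UTR sequence, pooled over all its basic transcripts.

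POTEH, a member of the primate POTE ankyrin family, had the highest mean density with dyskerin, 124 and 186 CPM per kb, from 73 and 121 cDNAs. It had 0 and 10 cDNAs with GAR1 and 16 and 0 with IgG of the dyskerin set, which is 315 and 0 CPM per kb, so that the deeper IgG library stood above both dyskerin libraries. Of its 54 positions, 81.5% had sequence found elsewhere in the genome, so its reads cannot be told apart from those of its relatives. VIM, which encodes the intermediate filament vimentin, followed with 86.2 and 136 from 47 and 82 cDNAs, against 0 and 6 cDNAs with GAR1 and none with IgG. Its CDS had 390 and 551 cDNAs with dyskerin.

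TAF1D, a subunit of the RNA polymerase I selectivity factor and a snoRNA host gene, had 68.6 and 56.6 CPM per kb from 69 and 63 cDNAs. It had none in any GAR1 or IgG library. TENM2, a teneurin, had 46.5 and 77.2 CPM per kb, against 25.3 and 0 with IgG of the dyskerin set, and 52.5% of its cDNAs lay within one stretch of 100 nt that begins 289 nt after the stop codon. GADD45A, a stress-induced growth arrest gene, had 58.0 and 59.99 with dyskerin, against 48.8 and 0 with IgG of that set, from 55 and 63 cDNAs against 4 and 0. JUN, a subunit of AP-1, had 63.0 and 49.8 with dyskerin, against 47.8 and 0 with IgG. JUN had 137 and 120 cDNAs with dyskerin, and 105 and 90 of them were within the first 100 nt after the stop codon. None was seen with GAR1, and IgG of the dyskerin set had 9 and 0. ENSG00000258989, a gene with no symbol in the annotation, had 39.7 and 57.7 CPM per kb from 23 and 37 cDNAs, against 160 and 0 from 8 and 0 cDNAs with IgG of the dyskerin set. The deeper IgG library was again above both dyskerin libraries, and all of the gene's positions also lay in another gene on the same strand.

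MAFK, a small MAF transcription factor, had 204 and 355 cDNAs with dyskerin in a 3′UTR of 2668 nt, 1 and 32 with GAR1, and none in any of the 4 IgG libraries. Its dyskerin density was 45.1 and 70.9 CPM per kb. The richest 100 nt for dyskerin ran from 57 to 156 nt after the stop codon, with 56 and 84 cDNAs and none with GAR1. The richest for GAR1 ran from 974 to 1056 nt, with 1 and 19 GAR1 cDNAs beside 46 and 70 with dyskerin. Each stretch was chosen by its own protein's cDNAs, which favours a difference. By dyskerin cDNAs, MAFK was the first 3′UTR with no IgG cDNA.

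FBXO22, an F-box protein of a ubiquitin ligase, had the most cDNAs of any 3′UTR in the dyskerin libraries, 962 and 799. It had 6 and 0 with GAR1 and 98 and 0 with IgG of the dyskerin set. The density was 57.0 and 42.7 CPM per kb with dyskerin, against 67.1 and 0 with IgG of that set, the deeper IgG library being above both dyskerin libraries. Of the dyskerin cDNAs 97.5% and 94.6% lay between 5001 and 8100 nt after the stop codon, and its CDS had 0 and 10. A gene on the other strand lay over 96.5% of its positions, and 29.05% had more than one copy in the genome. PCNX4 and RPAP2, named after their values were seen, came next by cDNAs. PCNX4 had 677 and 601 cDNAs with dyskerin and 0 and 13 with GAR1, against 73 and 0 with IgG of the dyskerin set. RPAP2 had 522 and 445 with dyskerin and none with GAR1, against 54 and 0 with IgG of the dyskerin set. Of the RPAP2 positions 81.2% had more than one copy in the genome, with a median of 98 copies, so most of its reads cannot be placed with certainty. Of the PCNX4 positions 27.2% lay in an intron of its canonical transcript. In CPM per kb PCNX4 had 23.2 and 18.6 with dyskerin, against 28.9 and 0 with IgG, and RPAP2 had 20.5 and 15.8 with dyskerin, against 24.5 and 0 with IgG.

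HNRNPA2B1 and SRSF1, which encode an hnRNP protein and an SR splicing factor, led the genes of RNA processing. HNRNPA2B1 had 386 and 423 cDNAs with dyskerin and 5 and 87 with GAR1, against 6 and 0 with IgG of the dyskerin set and 5 and 0 with IgG of the GAR1 set. Its density was 41.4 and 40.9 CPM per kb with dyskerin and 1.55 and 7.99 with GAR1, against 7.43 and 0 with IgG of the dyskerin set and 3.07 and 0 with IgG of the GAR1 set. The richest stretches of this 3′UTR differed between the proteins, where choosing each stretch by a protein's own cDNAs favours such a difference. The stretch from 1199 to 1296 nt after the stop codon held 127 and 166 cDNAs with dyskerin and none with GAR1, and the stretch from 515 to 544 nt held 5 and 26 with GAR1 beside 18 and 4 with dyskerin. The leading single site, 705 nt after the stop codon, had 12 and 16 with dyskerin, none with GAR1 and 3 in one IgG library. SRSF1 had 349 and 340 with dyskerin and 5 and 77 with GAR1, against 23 and 3 with IgG of the dyskerin set and none with IgG of the GAR1 set. Its density was 44.7 and 39.3 CPM per kb with dyskerin, against 34.1 and 79.5 with IgG of that set. From 351 to 450 nt it had 85 and 94 with dyskerin and 5 and 14 with GAR1. All SRSF1 positions also lay in another gene annotated on the same strand.

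**Figure D4:**
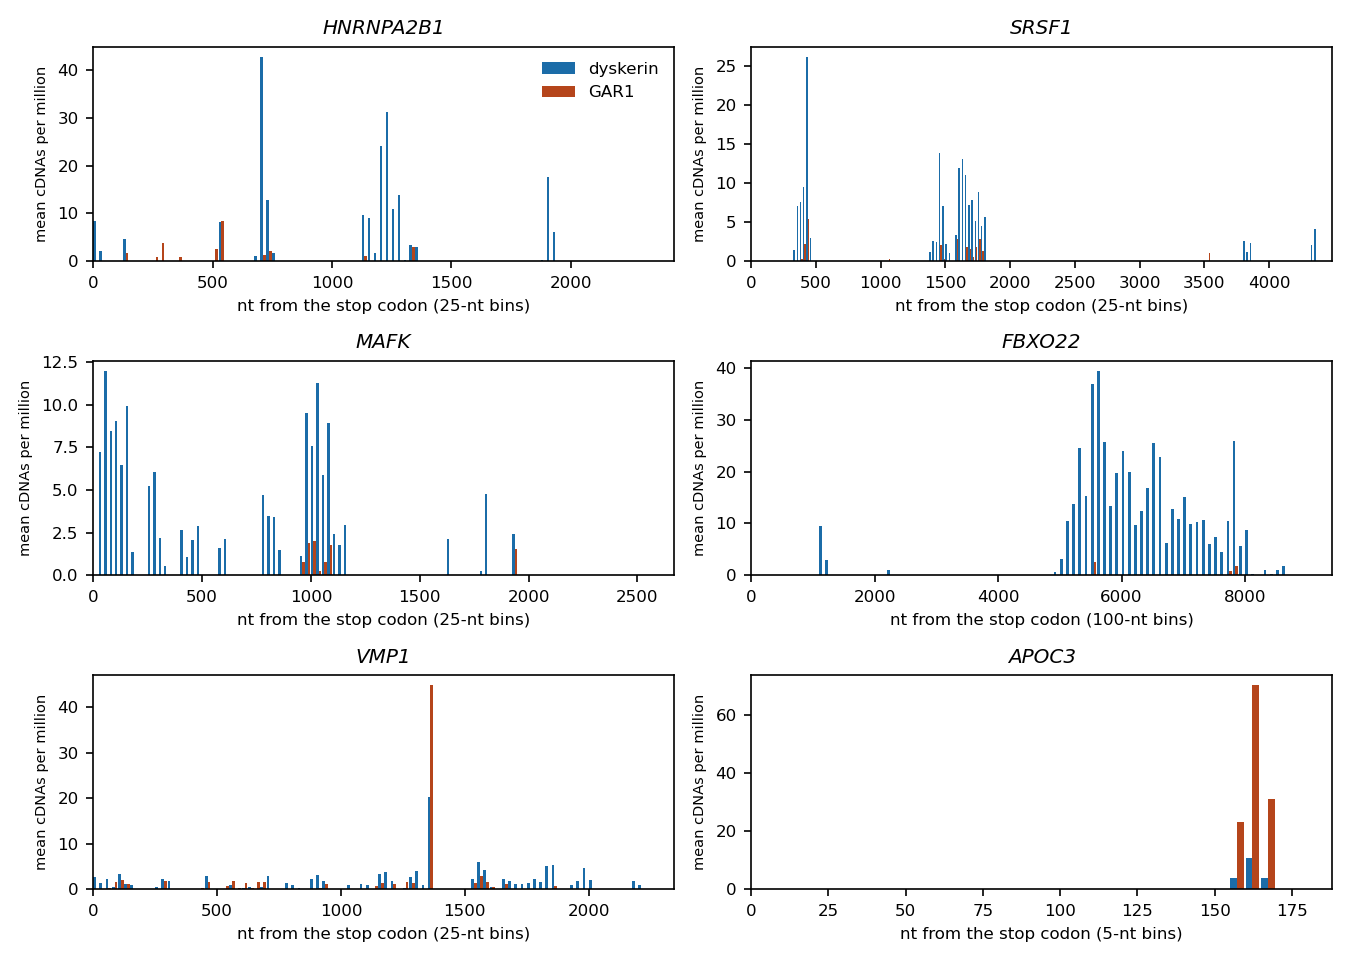
CPM (mean of both libraries, bars) along the canonical 3′UTR of 6 genes, by distance from the stop codon, for dyskerin and GAR1. In HNRNPA2B1 the tallest dyskerin bars hold no GAR1 cDNAs or few, and in APOC3 all cDNAs of both proteins are between 159 and 169 nt. In VMP1 the mean bars of both proteins peak at the miR-21 hairpin. For dyskerin that peak rests mainly on the first library, with 57 of 227 cDNAs there against 13 of 200 in the second. The IgG libraries, not drawn, also have cDNAs in the hairpin.

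VMP1 and APOC3 were present in every library, IgG included. The 3′UTR of VMP1, a membrane protein of autophagy, contains the hairpin of MIR21, an abundant oncogenic microRNA (chr17:59841266-59841337, plus strand). Its mature product, from RefSeq on GRCh38.p14, is given with bases 2 to 8, the seed, in capitals.
hsa-miR-21-5p, chr17:59841273-59841294: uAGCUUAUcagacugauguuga
The site at 59841271 had 29 and 8 cDNAs with dyskerin and 22 and 20 with GAR1, against 5 and 4 with IgG of the dyskerin set and 6 and 6 with IgG of the GAR1 set. The site at 59841272 had 22 and 4 with dyskerin and 18 and 18 with GAR1, against 3 and 9 with IgG of the dyskerin set and 2 and 1 with IgG of the GAR1 set. These positions are 2 and 1 nt before the first base of the mature microRNA, so the cDNAs of the second begin at that base. The whole 3′UTR of VMP1 had 227 and 200 cDNAs with dyskerin and 41 and 160 with GAR1, against 14 and 13 with IgG of the dyskerin set and 10 and 7 with IgG of the GAR1 set. All 41 of the first GAR1 library, 39 of the second, and 57 and 13 with dyskerin, were inside the hairpin. So were 10 and 13 with IgG of the dyskerin set and 10 and 7 with IgG of the GAR1 set, which is most or all of their VMP1 cDNAs. By CPM the IgG libraries with few cDNAs in all were among the highest: the density of VMP1 was 29.9 and 23.8 with dyskerin, 15.6 and 18.1 with GAR1, 21.3 and 355 with IgG of the dyskerin set and 7.56 and 146 with IgG of the GAR1 set.

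APOC3, a liver apolipoprotein, had 43 and 20 cDNAs with dyskerin and 110 and 121 with GAR1, against 8 and 3 with IgG of the dyskerin set and 92 and 21 with IgG of the GAR1 set. Its CDS had no cDNA in any of the 8 libraries. All cDNAs lay between 158 and 169 nt after the stop codon in a 3′UTR of 188 nt, around its AAUAAA. The leading site, chr11:116833045 on the plus strand, had 6 and 4 with dyskerin and 27 and 26 with GAR1, against 2 and 0 with IgG of the dyskerin set and 21 and 4 with IgG of the GAR1 set. Of 5 other liver markers SERPINA1 had 4 cDNAs in one dyskerin library and 1 in its IgG library, and ALB, APOA1, TF and TTR had none in any of the 8. APOC3 and VMP1 together made up 3 of the 3 positions called in all 8 libraries.

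**Figure D5:**
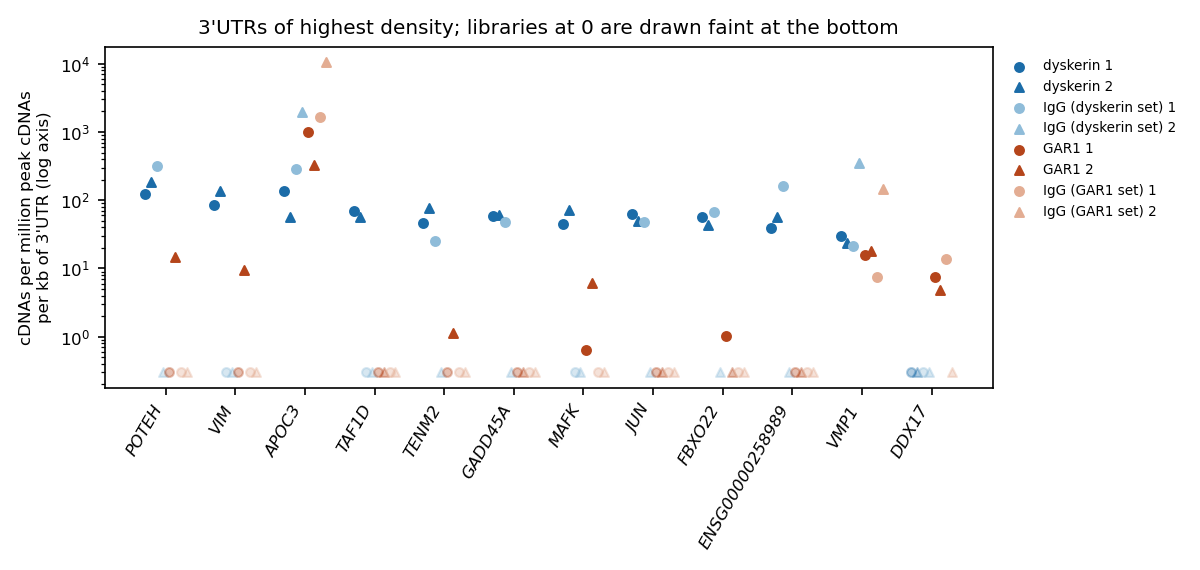
CPM per kb of 3′UTR (log axis) in every library for the 10 densest 3′UTRs with dyskerin and, at the right, VMP1 and DDX17, which with APOC3 are the 3 that had at least 10 cDNAs in both GAR1 libraries; circles are replicate 1, triangles replicate 2, and libraries at 0 are drawn faint at the bottom. An IgG point lies above all antibody points in POTEH, APOC3, FBXO22, ENSG00000258989, VMP1 and DDX17, and DDX17 has no dyskerin point above 0.

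Gene groups differed in density, which was not adjusted for the expression of the genes. The paper reports that both proteins bound mRNAs in proportion to their expression. The density over all 3′UTRs covers 18980 genes, of which 2376 had a 3′UTR site. The 13 lists were chosen with results of these data in view and describe, with no test of a list. Over all 3′UTRs the density was 0.320 and 0.283 CPM per kb with dyskerin and 0.0179 and 0.0206 with GAR1, against 0.146 and 0.243 with IgG of the dyskerin set. Among 32 genes of SR, speckle and hnRNP proteins, 13 had 3′UTR cDNAs in both dyskerin libraries and the list's density was 8.49 and 9.38, against 4.19 and 14.1 with IgG of that set, the second IgG library resting on 9 cDNAs. Beside HNRNPA2B1 and SRSF1 it holds HNRNPA1 (104 and 221 cDNAs), whose leading site is printed above. Of the HNRNPA1 positions 45.7% lay in an intron of its canonical transcript, the leading site among them. All HNRNPA1 positions also lay in another gene on the same strand. Of the list, 9 were tested between dyskerin and GAR1 (below) and 3 were higher with dyskerin, where 66.5% of all features tested and 75.0% of all 3′UTRs tested were. SRRM2, a large speckle scaffold protein, had 4135 and 5226 CDS cDNAs and no 3′UTR cDNA with dyskerin, and 0 and 18 3′UTR cDNAs with GAR1. Among 30 cytoskeleton and matrix genes 11 had cDNAs in both, at a density of 5.02 and 6.52 against 0.506 and 0 with IgG, and 2 of 8 tested were higher with dyskerin than with GAR1, again beside 66.5% of all features. ACTB, cytoplasmic actin, had 62 and 93 cDNAs with dyskerin and 0 and 21 with GAR1, and 61.6% of its positions had further copies in the genome. Among 26 mRNAs known for AU-rich elements 10 had cDNAs in both, at 4.78 and 4.06 against 2.41 and 0 with IgG. JUN and then IER3, an immediate early gene with 18 and 47 cDNAs, had the highest mean densities of this list. Of 6 tested, 4 were higher with dyskerin, a share close to the 66.5% of all features.

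Ribosomal protein mRNAs had few 3′UTR cDNAs. Of 35, 2 had 3′UTR cDNAs in both dyskerin libraries, RPL28 (7 and 5) and RPS24 (1 and 5), and the list's density was 0.125 and 0.156, below that of all 3′UTRs. Their CDS were denser than CDS as a whole, at 27.4 and 39.1, against 8.04 and 10.0 over all CDS. The 3′UTR sequence of all basic transcripts enters the list's 3′UTR density, 1.92 kb for RPS24 and 4.38 kb for RPL28. How far this lowers the density was not tested. Replication-dependent histone mRNAs, whose short 3′UTRs end in a stem-loop, had 0 and 3 cDNAs over 25 genes, all in H4C8. Of 18 selenoprotein genes 2 had cDNAs in both (TXNRD2 with 1 and 11, DIO2 with 3 and 4). Of the TXNRD2 positions 91.7% lay in an intron of its canonical transcript. Iron regulation genes had 3 and 0, all in IREB2, and nuclear-encoded oxidative phosphorylation genes 10 and 8, of which NDUFA13 had 7 and 5 at positions shared with another gene. Translation factors were at 1.01 and 1.25 CPM per kb, with PABPC1 at 25 and 41 cDNAs and EEF2 at 21 and 27. Chaperones were at 1.72 and 1.93 (2.59 and 0 with IgG of the dyskerin set), with HSP90B1 at 35 and 41 and HSPA9 at 10 and 16, glycolysis genes at 0.516 and 0.333, with GAPDH at 13 and 0 and ENO1 at 0 and 5, and nuclear envelope and chromatin genes at 0.112 and 0.376, with PTMA at 0 and 7 and LMNB1 at 0 and 6. Of the HSP90B1 positions 70.6% lay in an intron of its canonical transcript. All GAPDH and PTMA positions had further copies in the genome. Nucleolar and H/ACA proteins were at 0.597 and 1.28, with NOP58 at 10 and 28 and TCOF1 at 9 and 23. The mRNA of dyskerin itself, DKC1, had 7 and 2, all in an intron of its canonical transcript, and that of GAR1 had no 3′UTR site in any library.

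Single 3′UTRs were then compared between groups by edgeR's quasi-likelihood test, fitted over the gene-and-region features of all 8 libraries. Of 2376 genes with a 3′UTR site, 292 passed the filter of 10 cDNAs in at least 2 libraries. For dyskerin against its IgG, no 3′UTR was called at an adjusted p under 0.05 (without adjustment 74 had a p under 0.05 and were higher, 2 lower, and DESeq2 called 0), where over all 8206 features 0% were called. For GAR1 against its IgG, edgeR called none (24 and 0 at an unadjusted p under 0.05) and again 0% overall. DESeq2 called 2 higher, FBXO22 and PCNX4, whose GAR1 cDNAs numbered 6 and 0 and 0 and 13. The difference between the 2 antibody effects was called by edgeR in no 3′UTR (0 and 2 at an unadjusted p under 0.05) and in 0% of all features.

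For dyskerin against GAR1, 219 of the 292 3′UTRs were higher (75.0%), where 66.5% of all features were, and 1 was lower, where 3.47% of all features were. Of the 219, 217 had no cDNA in either GAR1 library, and 215 reached 10 cDNAs in the dyskerin libraries alone. These 215 entered the test only through the group where they are high, so their direction was set by the filter and the count is a description. An adjusted p of 0.0164, the smallest, was shared by 80 of the 219. The 6 of lowest unadjusted p were DAGLB (68 and 23 cDNAs with dyskerin), ZNF765 (49 and 48), MYH9 (25 and 80), YBX3 (33 and 50), RBM15 (43 and 61) and CLPTM1L (32 and 49), all with 0 in both GAR1 libraries and in all IgG libraries. MYH9 encodes a non-muscle myosin heavy chain, YBX3 a cold-shock domain protein and RBM15 an adaptor of m6A methylation. A lower bound on the fold was set with a floor of 3 cDNAs over both GAR1 libraries, and it depends on the scaling. It holds for called sites only, as cDNAs below the call are not counted. On the TMM scale of the fit the dyskerin level was at least 3.04-fold higher for DAGLB, 3.24-fold for ZNF765, 3.51-fold for MYH9, 2.78-fold for YBX3, 3.48-fold for RBM15 and 2.71-fold for CLPTM1L. In CPM by library totals the bounds were 21.8, 23.2, 25.1, 19.9, 24.9 and 19.4 in the same order. JUN was at least 8.60-fold higher on the TMM scale and 61.5-fold in CPM (edgeR adjusted p = 0.023). TAF1D was at least 4.42-fold and 31.6-fold higher on these scales (adjusted p = 0.0164), and EEF2 1.61-fold and 11.5-fold (adjusted p = 0.0164). JUN, TAF1D, EEF2 and the 6 above reached 10 cDNAs in the dyskerin libraries alone. The filter set their direction, so these folds and p-values are a description as well.

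These calls rest on the first GAR1 library. Without it 0 3′UTRs were higher and 6 were lower, namely COL1A1, DDX17, ERBIN, RBM25, RHOBTB3 and ZNF207, and 0 were called with the 3′UTRs fitted alone. Without the first dyskerin library 6 were called and without the second 5, of 27 that still passed the filter. The scaling also matters: the TMM factor of the second GAR1 library was 0.0611 and that of the first 0.520, against 1.25 and 1.26 with dyskerin. The fitted log2 difference of HNRNPA2B1 was -0.94 with TMM (edgeR adjusted p = 0.748) and 3.04 with total scaling (adjusted p = 0.00568). For SRSF1 it was -0.997 and 2.96, for MAFK -0.03 and 3.89 and for VMP1 -2.84 and 0.67, so no direction is given for these 4.

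The one 3′UTR lower with dyskerin than with GAR1 was that of DDX17, an RNA helicase. It had 0 and 0 cDNAs with dyskerin and 11 and 24 with GAR1, against 10 and 0 with IgG of the GAR1 set. It passed the filter through the GAR1 set alone, which sets this direction too. Its density was 7.52 and 4.86 CPM per kb with GAR1, against 13.6 and 0 with IgG, so the deeper IgG library stood above both GAR1 libraries. Against a floor of 3 cDNAs over both dyskerin libraries the GAR1 level was at least 16.3-fold higher in CPM and 116-fold on the TMM scale, and edgeR gave an adjusted p of 0.0164. This bound too holds for called sites only. Its CDS had 217 and 296 cDNAs with dyskerin and 0 and 7 with GAR1.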

How the data were processed

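iCLIP of dyskerin, GAR1 and mouse IgG was read from the deposited peak tables, 1 per library, and the cluster tables were not used. The authors checked reads with FastQC 0.11.9, trimmed them with Cutadapt to at least 10 nt, aligned them to GRCh38 with STAR 2.7.0e with at most 2 mismatches and up to 50 alignments per read, and called sites with iCount on GENCODE 27 gene segments (half-window 3 nt, 100 permutations, false discovery rate 0.05). The deposited values are counts of cDNAs per called nucleotide, so nucleotides below the call are not in the tables, and a 0 means no called site. The authors had iCount quantify cDNAs rather than reads, and intervals cover counting error only.

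Sites were placed on GENCODE 44 basic transcripts. The members, gene lists and tests were chosen with earlier results of these data known. cDNAs were summed per gene and region (3′UTR, CDS, 5′UTR, intron, other genes), and 0.189 to 2.62% of a library's cDNAs fell in no single gene and were left out. Features that reached 10 counts in 2 or more libraries were fitted over all 8 libraries with edgeR 4.0.16 (TMM, quasi-likelihood F test, Benjamini-Hochberg over all features, called under 0.05) in R 4.3.3, with DESeq2 1.42.0 as an alternative. Library totals ran over 8183 to 1976518 cDNAs, so a share in a shallow IgG library has a wide interval. Values per library were compared by exact two-sided permutation (70 arrangements of 4 against 4, smallest p 0.0286) and by exact sign-flip tests (256 arrangements, smallest p 0.00781). The code was tested on simulated data. For edgeR these had a spread set in advance, and IgG of the dyskerin set was drawn from the dyskerin levels. They give no error rate for the real data. Named were the 10 3′UTRs of highest mean dyskerin density among those with 20 cDNAs in both dyskerin libraries, those leading with GAR1, up to 6 called per comparison and direction, 2 per gene list, ACTB, EEF2, SRRM2, DKC1 and GAR1, and the leading sites. Same-numbered libraries did not deviate together (correlations from -0.187 to 0.102), so the numbers were not taken as pairs. Alternatives were scaling, filters, site minimum, weighting, margins, transcripts and libraries left out.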

Additional observations from a re-analysis of the deposited data

Results flagged for a closer look

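In 2 measures both dyskerin libraries differed from their IgG libraries in one direction and both GAR1 libraries from theirs in the other. The share of peak cDNAs in 3′UTR sites was 0.415 percentage points higher with dyskerin than with its IgG, and with GAR1 the difference from its IgG was -0.347 points, so that the differences lay 0.762 points apart. The median distance to the stop codon differed by -598 nt for dyskerin from its IgG and by 199.5 nt for GAR1 from its IgG, which is -797 nt between them. Neither pattern held in every setting. With sites of at least 3 cDNAs, the first dyskerin library lay at a median of 754 nt, beyond both its IgG libraries (662.5 and 569 nt). The share of the second dyskerin library was then 0.459%, below the 0.504% of the second IgG library. Without APOC3 and VMP1, both GAR1 libraries (759 and 768 nt) lay nearer to the stop codon than their second IgG library (855.5 nt). Neither difference between the sets was tested, and the IgG libraries hold 146514 and 8183 cDNAs (dyskerin set) and 295255 and 10701 (GAR1 set).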

How the results depend on the processing

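Depth limits the comparisons: 2 IgG libraries hold 40 and 36 3′UTR sites, 236 of 292 tested 3′UTRs had no cDNA with GAR1, and 2084 3′UTRs with a site were not tested. Fits without TMM, without a filter, or without one IgG library of the GAR1 set kept the count for dyskerin against GAR1 within 1.5 times of 220. It was 40 with at least 50 counts and 55 with sites of at least 3 cDNAs, where fewer 3′UTRs were tested (60 and 57), 89 with DESeq2, 0 with the 3′UTRs fitted alone and 0 with the replicate block, although the numbers did not pair the libraries. With 1 library left out it ran between 5 and 275. For GAR1 against its IgG the count was 2 with DESeq2 and between 0 and 22 with 1 library left out, the 22 without the first GAR1 library. The difference between the antibody effects gave 2 with DESeq2 and between 0 and 1 with 1 library left out. Dyskerin against its IgG gave 0 in each of these fits. The cause of these changes was not tested.

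The antibody difference in median distance to the stop codon was 179 nt with sites of at least 3 cDNAs, and between -313 and 69.3 nt with 1 library left out. With 1 library left out, the share of peak cDNAs differed by between -0.173 and 0.218 points, the share at uridine by between -2.41 and 12.4 points, and cDNAs per site, 3′UTR minus CDS, by between -0.0729 and 0.0838. The share at uridine, 3′UTR minus CDS, stayed above 0, at 13.5 to 21.2 points with 1 library left out, 12.3 points with sites of at least 3 cDNAs and 17.2 points in canonical transcripts. Without APOC3 and VMP1, chosen after seeing the data as was the restriction to single-copy sequence, the share called in the other replicate differed by -8.24 points. This choice leaves the IgG replicates no shared 3′UTR position, which sets the sign in the IgG libraries.

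The log2 difference, dyskerin over GAR1, turned positive in several fits for 4 3′UTRs. In the order 3′UTRs alone, DESeq2, no filter, sites of at least 3 cDNAs and total scaling, HNRNPA2B1 had 0.42, 5.28, 0.84, 5.11 and 3.04, SRSF1 had 0.33, 5.21, 0.79, 4.74 and 2.96, and MAFK had 1.39, 6.25, 1.76, 4.93 and 3.89, with 1.69 under the replicate block. VMP1 had 2.83 with DESeq2, 0.74 with sites of at least 3 cDNAs and 0.67 with total scaling. With 1 library left out, HNRNPA2B1 ran between -1.92 and 4.33, SRSF1 between -1.97 and 4.10, MAFK between -1.02 and 6.002 and VMP1 between -3.71 and 0.40.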
